A study of Rattus norvegicus with 4 samples.

Results

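Collagens are the main proteins of skin and fascia, and 10 of their genes were followed here across fibroblasts, mural cells and endothelial cells of rat subcutaneous fascia and skin. They were Col1a1, Col1a2, Col3a1, Col5a1, Col5a2, Col5a3 and Col11a1, which encode chains of fibril-forming collagens, Col12a1 and Col14a1, which encode collagens that sit on the surface of fibrils, and Col6a3, a chain of type VI collagen. Type VI collagen forms beaded filaments beside the fibrils and is strictly neither fibrillar nor fibril-associated. The 10 genes were chosen by name from the 30560 genes of the deposited tables, and 32 other collagen genes were measured beside them.

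A fibrillar collagen is secreted as a triple helix of chains with long propeptides, which proteases trim before the molecules pack into fibrils. Type I collagen is built of the products of Col1a1 and Col1a2 and gives dermis, tendon and fascia their tensile strength. Type III joins it in extensible tissue and vessel walls, while types V and XI sit inside fibrils and limit their width. Types XII and XIV bind along the fibril surface through interrupted triple helices and connect fibrils with their surroundings.

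The study profiled single cells of wild-type rats with droplet sequencing (10x Genomics), in 2 libraries of subcutaneous fascia and 2 libraries of skin, and its title places the fascia at the abdominal midline. Both tissues were minced and digested with enzymes that included collagenase, red cells were lysed and dead cells removed. The labels used here name no treatment and give no strain, age or animal for a library. The labels do not say that libraries come from separate animals, so the p-values measure the spread between libraries, which may be technical. Values are given below as replicate 1 and replicate 2 of each tissue, in that order.

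The deposited tables held 95777810 and 83852172 UMIs (distinct RNA molecules) in fascia and 88334062 and 85165728 UMIs in skin. After filters, 6602 and 6812 fascia cells and 7015 and 14279 skin cells were kept. Skin replicate 2 stood apart in depth, with a median of 2463 UMIs per cell, against 12683.5 and 10326.5 UMIs in fascia and 8873 UMIs in skin replicate 1, and with 41.8% of its cells under 2000 UMIs. Any pair of libraries shared 17 to 45 cell barcodes.

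Fibroblasts were taken from clusters named by markers that included none of the 10 genes, and the 10 genes were also kept out of the clustering. Fascia fibroblasts with at least 10 UMIs of Pi16, a marker of adventitial and fascial fibroblasts, are called Pi16-high and numbered 2107 and 435 cells. Those with fewer than 10 UMIs of Pi16 and at least 1 UMI of Pdgfra, the receptor for platelet-derived growth factor that marks fibroblasts, are called Pi16-low and numbered 532 and 261 cells. Skin fibroblasts with at least 10 UMIs of Igfbp2, which encodes an insulin-like growth factor binding protein, are called Igfbp2-high and numbered 196 and 112 cells. The other skin fibroblasts with at least 1 UMI of Pdgfra, called Igfbp2-low, numbered 85 and 199 cells. Mural cells, which are pericytes and smooth muscle around vessels, numbered 1258 and 1946 in fascia and 62 and 245 in skin. Blood endothelial cells numbered 613 and 1021 in fascia and 149 and 453 in skin.

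The subsets carried the markers of their names, although the skin subsets also held keratinocyte RNA. The summed level of 15 fibroblast markers was 43543 and 36540 CPM (UMIs of a gene per 1000000 UMIs of the subset in a library) in Pi16-high cells and 60580 and 66405 CPM in Igfbp2-high cells. In Igfbp2-high cells Dcn alone had 35416 and 38658 CPM, and Sfrp2 was at 0 in both libraries. All 13 measured mural markers were above 10 CPM in the mural cells of every library. These lists also named the clusters, and the fibroblast list includes Pi16, Igfbp2 and Pdgfra of the gates. The fibroblast and mural values thus describe the subsets and are no separate support for their names. The summed level of 16 keratinocyte markers was 8.84 and 14.4 CPM in Pi16-high cells, 407 and 2381 CPM in Igfbp2-high cells, 11.9 and 13.7 CPM in fascia mural cells and 893 and 470.1 CPM in skin mural cells. In Igfbp2-high cells, 10 and 12 of those 16 markers exceeded 10 CPM, with Krt25 and Krt27 at 0 in replicate 2, and in Pi16-high cells 0 and 1 of them did, with Krt5, Krt17, Dsp, Dsg3, Perp, Ly6d, Krt71 and Krt27 at 0 in both libraries. The part of this RNA in the differences below was not tested.

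A promoter window was found in the RefSeq table for 6 of the 10 genes, and the windows of Col1a2 and Col5a3 are printed because Col1a2 was lower in fascia than in skin fibroblasts, and Col5a3 was higher in fascia than in skin mural cells. Each window of 300 bases runs 5′ to 3′ on the gene's strand, from 250 bases before to 50 after the gene's start, on build GRCr8. The Col1a2 window lies at chr4:33518307-33518606 on the plus strand, and the Col5a3 window at chr8:27625899-27626198 on the minus strand. Capitals mark CCAAT, read on either strand (ATTGG on the printed one), and TATAAA.
Col1a2: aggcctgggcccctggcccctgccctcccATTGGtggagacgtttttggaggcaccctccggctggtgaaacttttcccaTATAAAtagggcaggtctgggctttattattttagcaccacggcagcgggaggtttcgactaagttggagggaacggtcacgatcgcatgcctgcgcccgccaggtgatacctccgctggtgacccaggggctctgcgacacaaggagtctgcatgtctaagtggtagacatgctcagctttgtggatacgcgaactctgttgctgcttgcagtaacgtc
Col5a3: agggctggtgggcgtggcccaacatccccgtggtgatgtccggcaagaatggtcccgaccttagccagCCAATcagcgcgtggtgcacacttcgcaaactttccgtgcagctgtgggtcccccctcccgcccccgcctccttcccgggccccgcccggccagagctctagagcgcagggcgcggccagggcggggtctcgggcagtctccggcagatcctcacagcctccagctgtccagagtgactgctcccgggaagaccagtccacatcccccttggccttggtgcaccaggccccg
In Col1a2 the CCAAT match began at position -221 and TATAAA at position -170 from the gene's start, and in Col5a3 the CCAAT match began at position -182. Searched on both strands, CCAAT occurred in 3 of the 6 matched windows and in 37.5% of all 33469 windows of the table. TATAAA, searched on the gene's strand only, occurred in 1 of the 6 and in 8.80% of all. These are matches of letters only. In the same annotation Col3a1 and Col5a2 are next to each other.

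The 10 collagen genes together took a larger share of all RNA in Igfbp2-high skin fibroblasts than in either fascia subset. They held 2.45% and 4.54% of all UMIs in Pi16-high fascia fibroblasts (3.49% ± 1.47, SD, n = 2), 2.56% and 3.94% in Pi16-low fascia fibroblasts (3.25% ± 0.981), and 14.2% and 11.2% in Igfbp2-high skin fibroblasts (12.7% ± 2.12). Exact 95% intervals, which cover counting error only, were 2.45% to 2.46% and 4.52% to 4.55% in Pi16-high cells and 14.2% to 14.2% and 11.1% to 11.3% in Igfbp2-high cells. The 2 tissues did not overlap, and the gap between the fascia libraries was far wider than counting error. With the gates applied to all kept cells whatever their cluster, the shares were 2.40% and 4.35% in Pi16-high cells and 13.3% and 4.45% in Igfbp2-high cells, so skin replicate 2 then lay beside fascia replicate 2. No test was made of the share, since an exact permutation test of 2 libraries against 2 cannot give a p under 0.33. The Igfbp2-high subset had been picked as rich in collagen, so its larger share partly restates that choice.

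Igfbp2-low skin fibroblasts held 18.6% and 5.69%, so the skin replicates stood far apart there. In skin replicate 1, 90.6% of the Igfbp2-low cells lay in the cluster led by Ccl19 and Igfbp2, which also held 100% and 99.1% of the Igfbp2-high cells. Col1a1 and Col1a2 were among the 10 leading genes of this cluster, although they took no part in the clustering. In skin replicate 2, 88.4% of them lay in a cluster led by Sfrp2, the one that held 90.2% and 74.7% of Pi16-low fascia cells. Within this Sfrp2-led cluster the collagen share was 2.56% and 3.98% in fascia and 2.55% in skin replicate 2. Skin replicate 1 had 9 cells there and gives no value, so fascia and skin could not be tested in that cluster.

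Mural cells held much less collagen RNA, with 0.225% and 0.219% of UMIs in fascia (0.222% ± 0.00467) and 0.0474% and 0.0584% in skin (0.0529% ± 0.00779). Endothelial cells held 0.0432% and 0.0235% in fascia and 0.00772% and 0.0578% in skin. Of cells that make little collagen, leukocytes held 0.0150% and 0.00821% in fascia and 0.0147% and 0.0355% in skin. Keratinocytes held 0.00778% and 0.0811% in skin. In each fascia library the endothelial share was above that of leukocytes. The endothelial shares of skin thus fell within or near the range of skin leukocytes and keratinocytes, so free RNA in droplets and expression cannot be told apart there.

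**Figure D1:**
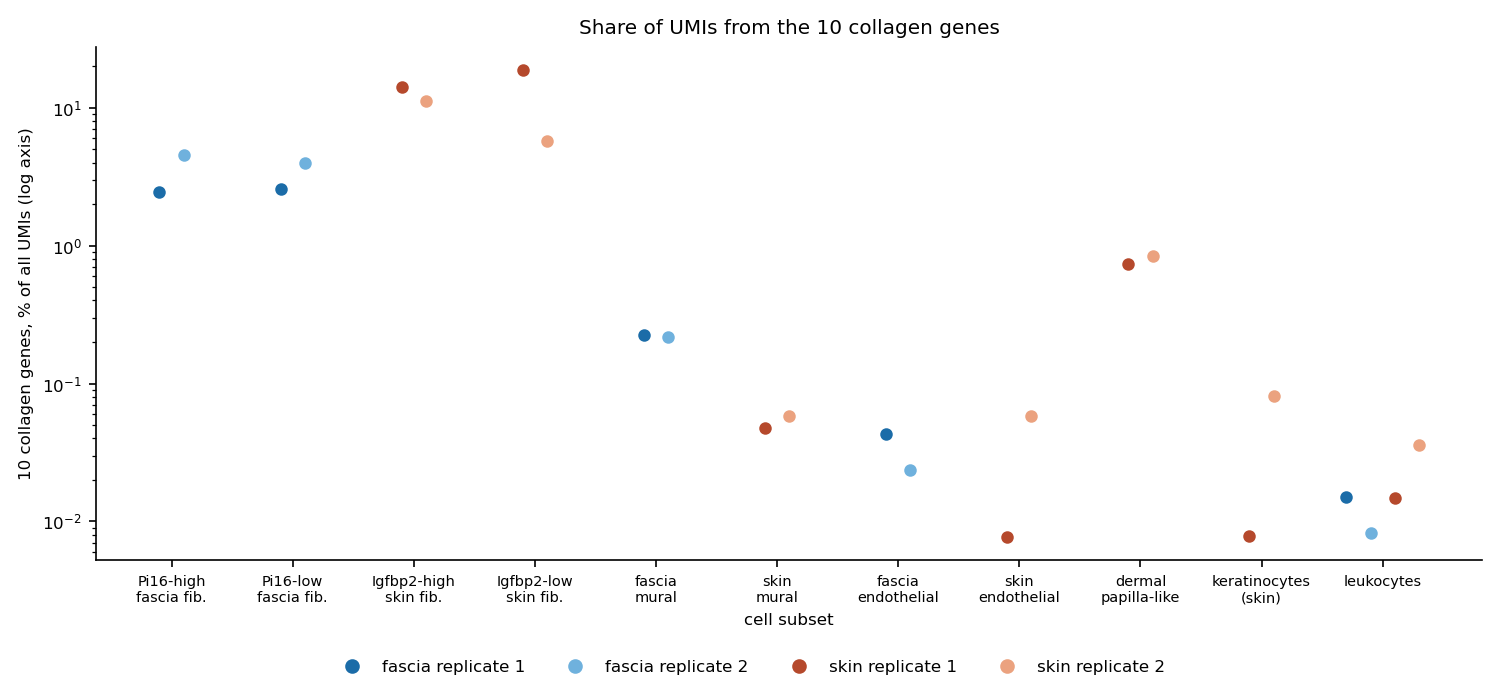
Share of all UMIs held by the 10 collagen genes, in percent on a log axis, in each subset; each point is 1 library. Igfbp2-high skin fibroblasts lie at 14.2% and 11.2%, Pi16-high fascia fibroblasts at 2.45% and 4.54%, and leukocytes under 0.04%.

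The share varied widely from cell to cell, most of all in skin. In Pi16-high cells the 10th percentile, median and 90th percentile over cells were 1.17%, 2.23% and 3.97% in replicate 1 and 1.98%, 4.08% and 7.76% in replicate 2. In Igfbp2-high cells they were 1.60%, 7.95% and 24.9% in replicate 1 and 1.15%, 7.19% and 24.4% in replicate 2. The lowest 10% of Igfbp2-high cells therefore lay at or under the middle of the Pi16-high range. Cells just inside and outside the gates differed little. Fascia fibroblasts with 10 to 14 UMIs of Pi16 held 2.45% and 4.50%, and those with 5 to 9 UMIs held 2.15% and 4.42%. Skin fibroblasts with 10 to 14 UMIs of Igfbp2 held 21.4% (8 cells) and 18.5% (17 cells), and those with 5 to 9 UMIs held 18.6% (27 cells) and 20.5% (9 cells). Both sides of the skin gate thus lay above the whole Igfbp2-high subset (14.2% and 11.2%).

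Pi16-high fascia fibroblasts were compared with Igfbp2-high skin fibroblasts, the fascia subset with most cells against the skin subset gated on Igfbp2. This skin subset was chosen as one already known from these data to be rich in collagen. Lower type I and III chains in fascia therefore partly restate that choice, and their p-values are no separate support for a difference between the tissues. RNA of the type I and type III chains was 3.13-fold to 6.54-fold lower in fascia, RNA of the fibril-surface collagens Col14a1 and Col12a1 was higher, and the chains of types V and VI did not pass the test. Of the 10 genes, 9 passed the low-count filter. By edgeR's quasi-likelihood test, with p-values adjusted over all genes by the Benjamini-Hochberg method, 2 of the 9 were higher and 3 were lower in fascia. Among all 11577 genes tested, 30.8% were called, 14.3% higher and 16.5% lower, so a called gene was common in this comparison. Called means an adjusted p under 0.05 throughout, and log2 changes are given with their SE. CPM values are scaled by all UMIs of the subset only, whereas the fitted changes also use normalization factors of edgeR (TMM). A fitted change can thus differ in size, and for small differences in sign, from the printed CPM values.

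Col1a1 (ENSRNOG00000003897), the major chain of type I collagen, had 7456 and 15422 CPM in Pi16-high fascia fibroblasts, against 63292 and 50646 CPM in Igfbp2-high skin fibroblasts. The lowest skin library was above the highest fascia library, and the fitted level was 6.54-fold lower in fascia (log2 change -2.71 ± 0.44, adjusted p = 0.00288). Col1a2 (ENSRNOG00000011292), its partner chain, had 7058 and 13762 CPM in fascia and 50550 and 39037 CPM in skin, a 5.66-fold lower level in fascia (-2.50 ± 0.43, adjusted p = 0.00354). Col3a1 (ENSRNOG00000003357), the only chain of type III collagen, had 7075 and 12919 CPM in fascia, against 26581 and 20956 CPM in skin, and was 3.13-fold lower in fascia (-1.64 ± 0.39, adjusted p = 0.0153). The 3 genes thus fell together, and each fascia library lay below each skin library. The Col3a1 call was lost without skin replicate 1 (-1.31, adjusted p = 0.114). Without fascia replicate 2 the log2 change of Col1a1 was -3.36 and that of Col1a2 was -3.10.

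The chains of type V collagen, which start fibrils and limit their width, had overlapping levels in the 2 tissues. Col5a2 (ENSRNOG00000003736) had 746 and 1032 CPM in Pi16-high cells and 1004 and 902 CPM in Igfbp2-high cells, with overlapping libraries and a log2 change of -0.49 (adjusted p = 0.213, interval -1.04 to 0.05 by 2 SE on either side). Col5a1 (ENSRNOG00000008749) had 80.2 and 128 CPM in fascia and 115 and 73.4 CPM in skin (-0.31, adjusted p = 0.530). Col5a3 (ENSRNOG00000020525), a type V chain found in fewer tissues, had 29.9 and 57.4 CPM in fascia and 48.2 and 28.7 CPM in skin (-0.32, adjusted p = 0.589). Mean CPM was slightly higher in fascia for Col5a1 (104 against 94.4) and Col5a3 (43.7 against 38.5), although their fitted changes were negative. Their direction thus depends on the scaling. None of the 3 passed the test, which does not show equal levels. Col11a1 (ENSRNOG00000023148), a chain of the cartilage-type collagen XI, was at the limit of detection, with 19 and 1 UMIs in Pi16-high cells and 1 and 0 UMIs in Igfbp2-high cells, and was not tested.

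Col14a1 (ENSRNOG00000026415), the chain of the fibril-surface collagen XIV, was the strongest difference among the 10 genes. It had 1491 and 1375 CPM in Pi16-high fascia fibroblasts, against 22.9 and 12.8 CPM (64 and 12 UMIs) in Igfbp2-high skin fibroblasts. The fitted level was 56.1-fold higher in fascia (5.81 ± 0.37, adjusted p = 3.37e-05), and without skin replicate 1 the log2 change was 6.56. With every cell thinned to 2000 UMIs, 92.1% and 89.0% of Pi16-high cells and 3.59% and 1.80% of Igfbp2-high cells had a Col14a1 UMI, and without thinning 99.6% and 100% did in fascia and 17.9% and 5.36% in skin. Leukocytes, which should lack it, had thinned shares of 1.21% and 0.589% in fascia and 0% and 0.578% in skin, at median depths of 11617, 10272, 6392 and 3571.5 UMIs. Col14a1 RNA was thus in most fascia cells of the subset and in few skin cells.

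Col12a1 (ENSRNOG00000058470), the chain of collagen XII, which also binds fibrils, had 127 and 68.2 CPM in Pi16-high cells and 36.1 and 29.8 CPM in Igfbp2-high cells. It was 2.17-fold higher in fascia (1.12 ± 0.33, adjusted p = 0.0341). This call was lost when fascia replicate 1 (0.64), skin replicate 1 (1.46) or skin replicate 2 (0.91) was left out, and with the gate per 10000 UMIs of the cell (1.04, adjusted p = 0.0523). The call was also lost with the gates over all kept cells, and with no gate the change turned to lower in fascia. A Col12a1 UMI was found in 20.8% and 10.6% of thinned fascia cells and 6.15% and 5.41% of thinned skin cells. Col6a3 (ENSRNOG00000019648), a long chain of the beaded type VI filaments, had 449 and 591 CPM in fascia and 292 and 217 CPM in skin. Its libraries did not overlap, but it did not pass the test (0.62, adjusted p = 0.142).

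**Figure D2:**
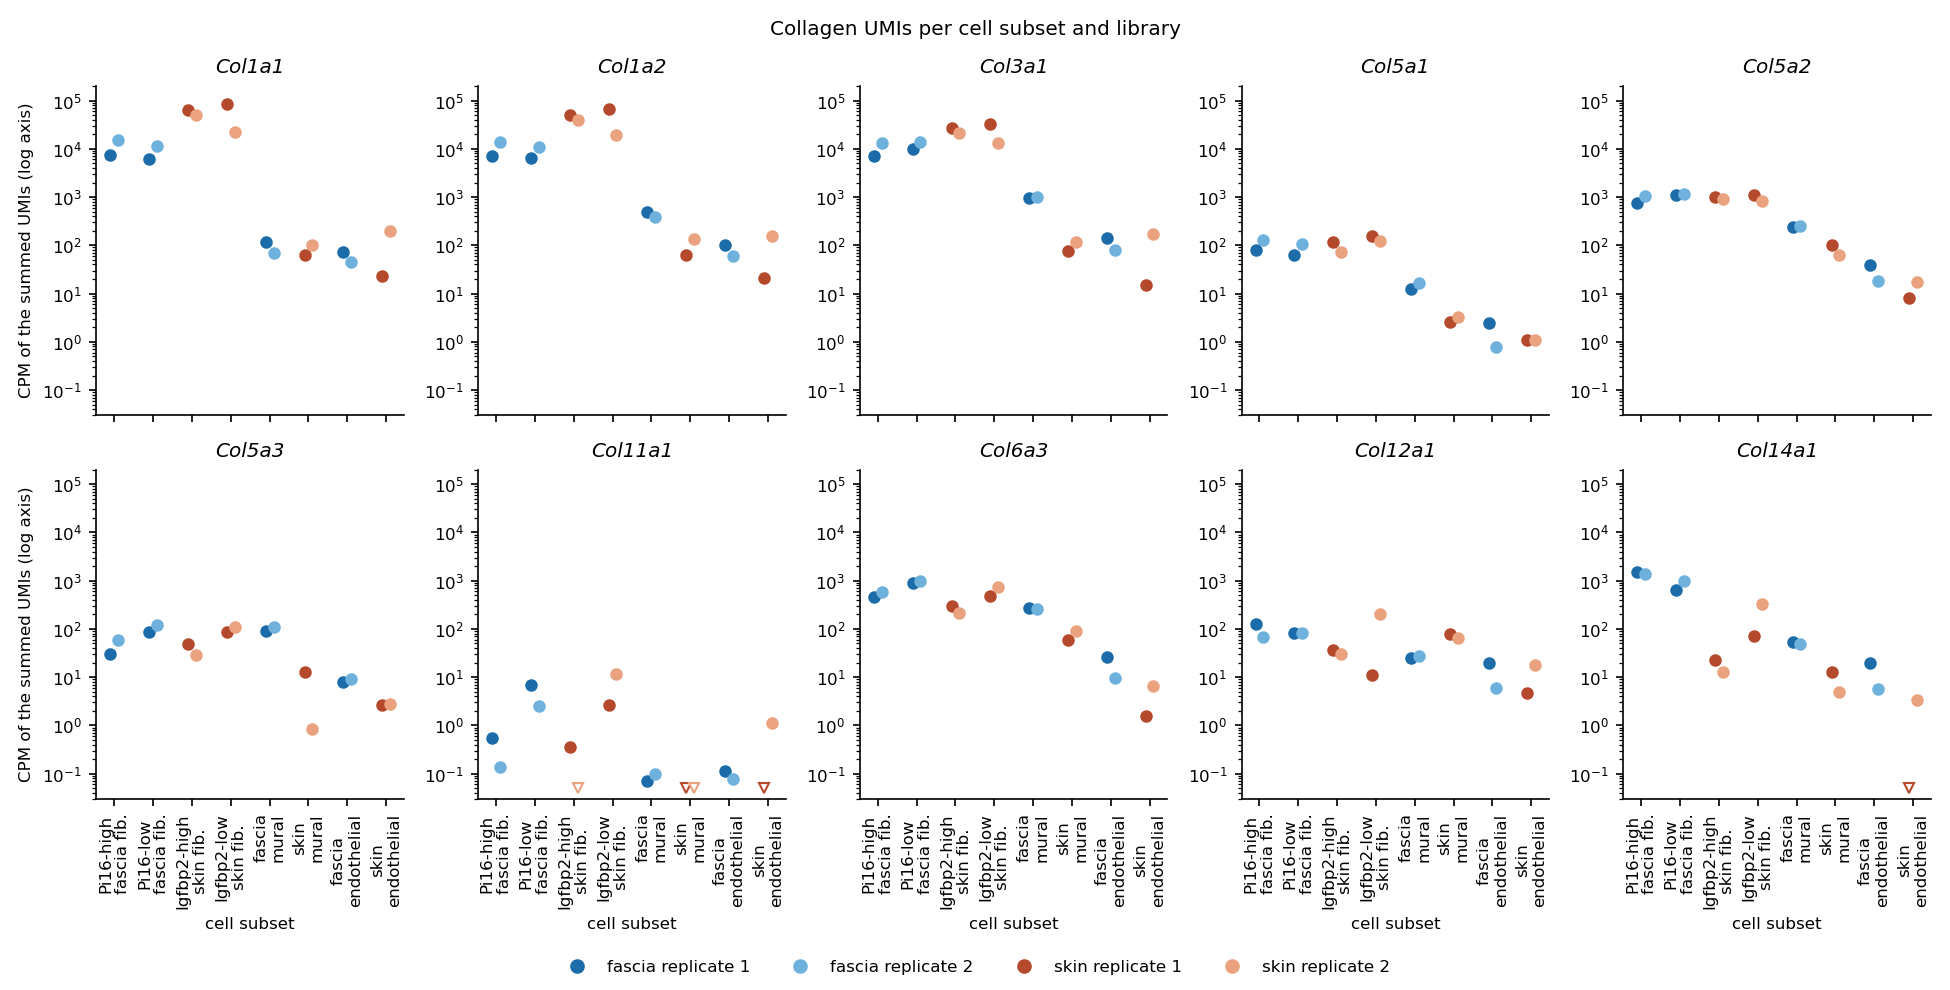
Level of each of the 10 genes, in CPM on a log axis, in 8 subsets; dots are libraries and open triangles at the bottom are libraries with no UMI. Col1a1 lies at 7456 and 15422 CPM in Pi16-high fascia cells and at 63292 and 50646 CPM in Igfbp2-high skin cells, while Col14a1 runs the other way.

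Whether these differences were called depended on how the skin fibroblasts were chosen. With all cells of fibroblast clusters and no gate, edgeR's quasi-likelihood test called none of the 10 genes, with 3 at an unadjusted p under 0.05: Col14a1 (3.06, adjusted p = 0.0785), Col1a1 (-2.71, adjusted p = 0.0854) and Col1a2 (-2.47, adjusted p = 0.0924). The fitted changes of the type I chains were thus as large as with the gates, while that of Col14a1 was smaller and that of Col12a1 turned direction. With the gates applied to all kept cells whatever their cluster, which took 207 instead of 112 cells in skin replicate 2, only Col14a1 was called (6.20, adjusted p = 0.0178), and Col1a1 had a log2 change of -2.24 (adjusted p = 0.158).

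Within the Sfrp2-led cluster, the only fibroblast cluster with a skin and a fascia share of many cells, skin replicate 2 was near fascia in Col1a1 and Col3a1. It was not near fascia in Col14a1 and Col12a1. Clustering groups cells by likeness of their other genes, so likeness within a cluster is partly built in. Col1a1 had 6274 and 11423 CPM there in fascia and 6442 CPM in skin replicate 2, and Col3a1 had 9876 and 13914 CPM in fascia and 8961 CPM in skin replicate 2. Col14a1 had 696 and 873 CPM in fascia and 369 CPM in skin replicate 2, and Col12a1 had 94.4 and 80.4 CPM in fascia and 242 CPM in skin replicate 2. For type I and III chains the skin value was thus inside or just under the fascia range, below it for Col14a1 and above it for Col12a1. With 1 skin library these are values without a test.

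**Figure D3:**
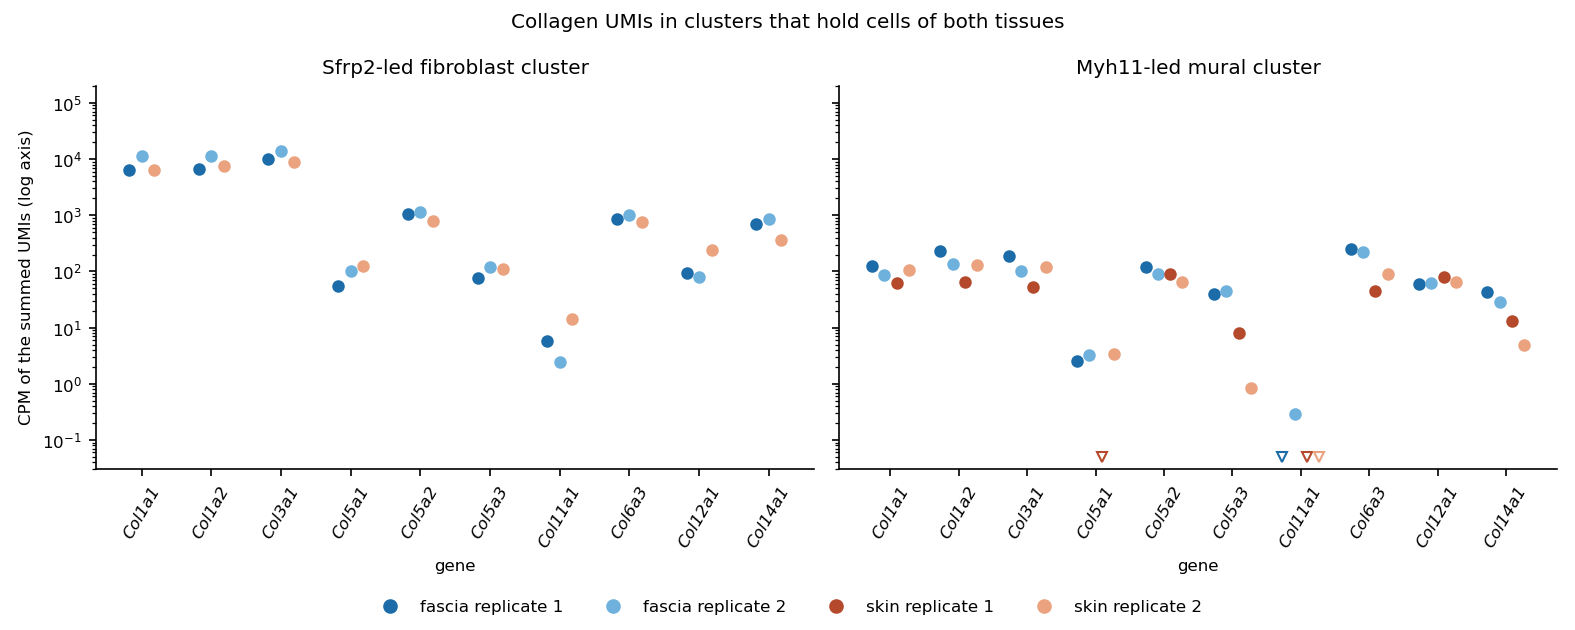
Level of the 10 genes, in CPM on a log axis, in clusters that both tissues shared: the Sfrp2-led fibroblast cluster (fascia replicates 1 and 2, skin replicate 2) and the Myh11-led mural cluster (4 libraries); triangles mark no UMI. Col1a1 in the fibroblast cluster lies at 6274 and 11423 CPM in fascia and 6442 CPM in skin.

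Other genes of collagen biology were read from lists of genes, named by largest change. Of 16 other collagens tested between Pi16-high and Igfbp2-high cells, 1 was higher and 9 were lower in fascia, and their median log2 change was -1.30, against 0.07 over all genes tested. Col6a6, a type VI chain, had 27.3 and 27.6 CPM in fascia and no UMI in skin, where 3 UMIs would be 1.07 and 3.19 CPM. Col15a1, a basement membrane-zone collagen, had 3.77 and 2.98 CPM in fascia and 634 and 531 CPM in skin (-7.80). The transmembrane collagen Col13a1, at 0.113 and 0.271 CPM in fascia and 42.5 and 42.6 CPM in skin, was also lower in fascia, as were Col16a1 (-2.59) and Col17a1 (-5.71). Col17a1 is known as a keratinocyte collagen, and the keratinocyte markers were higher in the skin subset, as given above.

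Genes that fold, secrete and trim collagen had 4 higher and 14 lower of 29 tested (median log2 change -0.44). Adamts2, which removes the amino-terminal propeptide of fibrillar collagens, had 220.1 and 242 CPM in fascia and 517 and 523 CPM in skin (-1.56, adjusted p = 0.00146). The prolyl hydroxylase P4ha2 (-1.42), the chaperone Fkbp10 (-1.50) and the proteinase enhancer Pcolce (-1.41) were lower in fascia as well. Its relative PCOLCE2, which was among the leading genes of the Pi16-led cluster, had 1478 and 1191 CPM in fascia and 269 and 325 CPM in skin (1.79), and the procollagen proteinase Tll1 was also higher (3.56). Colgalt2, a collagen galactosyltransferase, had 40.5 and 25.3 CPM in fascia and no UMI in skin.

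Among genes that bind or assemble fibrils, 3 were higher and 8 lower of 15 tested (median log2 change -1.29). Fibronectin, Fn1, had 6237 and 9113 CPM in fascia and 40.0 and 68.1 CPM in skin (6.82), and periostin, Postn, had 771 and 2602 CPM in fascia and 2.14 and 4.26 CPM in skin (8.84). Among the lower genes were Lum, at 87.4 and 78.4 CPM in fascia and 2403 and 1818 CPM in skin (-5.08), and Bgn (-3.19), which encode small proteoglycans. Lum was among the fibroblast markers and led the Igfbp2-led cluster, so its value describes the subset.

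Among 5 crosslinking genes, 1 was higher and 3 were lower (median log2 change -1.08): Loxl1 had 517 and 296 CPM in fascia and 72.9 and 97.9 CPM in skin (1.88), while Lox (-2.98), Loxl4 (-2.36) and Loxl2 (-1.08) were lower. Of 8 genes of collagen breakdown, 1 was higher and 5 were lower (median log2 change -1.26), among them the gelatinase Mmp2 (-1.32) and the protease inhibitor Timp1 (-2.60). Mmp3, also a leading gene of the Igfbp2-led cluster, had 0.0845 and 0.271 CPM in fascia and 870.4 and 844 CPM in skin. Of 23 genes of collagen transcription and its signals, 2 were higher and 7 lower (median log2 change -0.20), with Tgfb3 (2.37) higher and Ccn2 (-6.10) and Runx1 (-5.50) lower in fascia.

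Pi16-low fascia fibroblasts were set against the same Igfbp2-high skin sums, so this comparison shares its skin libraries with the one above. It also shares the choice of a skin subset known to be rich in collagen. Of 9 collagen genes tested, 3 were higher and 3 lower in fascia, with 22.3% of 11217 genes called, 10.6% higher and 11.7% lower. Col1a1 had 6204 and 11623 CPM in Pi16-low cells and 63292 and 50646 CPM in Igfbp2-high cells (-3.09 ± 0.45, adjusted p = 0.00384). Col1a2 (-2.78, adjusted p = 0.00441) and Col3a1 (-1.43, adjusted p = 0.0275) were also lower in fascia. The higher genes were Col14a1 (4.95, adjusted p = 0.000534), Col6a3 (1.43, adjusted p = 0.0118) and Col12a1 (0.85, adjusted p = 0.0359), the last lost without fascia replicate 1 (0.84) or skin replicate 2 (0.62), with DESeq2 (0.85, adjusted p = 0.111) and with a gate of 5 UMIs (0.63, adjusted p = 0.0799). With the gates over all kept cells, Col1a1 (-2.76), Col1a2 (-2.46), Col3a1 (-1.11), Col6a3 (1.72) and Col12a1 (0.76) lost their calls (adjusted p = 0.141 to 0.423), and Col14a1 kept its call. Col6a3 had 886 and 963 CPM in Pi16-low fascia cells and 292 and 217 CPM in skin.

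The Col3a1 call of the Pi16-low comparison was lost without skin replicate 1 (-1.12) and with the replicate number as a block (-1.42, adjusted p = 0.0596). Without skin replicate 1 the Col14a1 change was 5.68. Among the lists, other collagens had 3 higher and 6 lower of 18, folding and secretion genes 3 and 10 of 29, fibril-binding genes 5 and 5 of 15, crosslinking genes 1 and 2 of 5, breakdown genes 1 and 4 of 8 and transcription genes 4 and 4 of 23. Col4a2, a basement membrane chain, was higher in fascia (1.72), as were dermatopontin, Dpt (1.87), and Timp3 (2.10). Sparc, a collagen-binding matrix protein, had 3045 and 5416 CPM in Pi16-low cells and 23582 and 17345 CPM in skin (-2.69).

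Inside the fascia, Pi16-high and Pi16-low fibroblasts differed in Col5a3 and Col6a3, and the type I and III chains were not called. Of the 10 genes, all tested here with the library as a block, none was higher and 3 were lower in Pi16-high cells, with 15.4% of 12104 genes called, 5.94% higher and 9.49% lower. Col5a3 had 29.9 and 57.4 CPM in Pi16-high cells and 85.7 and 119 CPM in Pi16-low cells, 2.45-fold lower (-1.29 ± 0.17, adjusted p = 0.00773). Col6a3 had 449 and 591 CPM in Pi16-high cells and 886 and 963 CPM in Pi16-low cells (-0.84 ± 0.19, adjusted p = 0.0392). Col11a1, the third called gene, had 0.535 and 0.135 CPM (19 and 1 UMIs) in Pi16-high cells and 6.73 and 2.47 CPM (45 and 10 UMIs) in Pi16-low cells (-3.71, adjusted p = 0.00788), a difference between very low levels. It passed the low-count filter only through the Pi16-low sums, so its call is no separate support for a difference.

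Col14a1 had 1491 and 1375 CPM in Pi16-high cells and 628 and 973 CPM in Pi16-low cells, with no overlap but no call in edgeR's quasi-likelihood test (0.87, adjusted p = 0.0755). It was called by DESeq2 (0.91, adjusted p = 0.00815), without the low-count filter (0.94, adjusted p = 0.00692) and in cells thinned to 5000 UMIs (1.00, adjusted p = 0.00142). Col1a1 (0.34, adjusted p = 0.546), Col1a2 (0.23, adjusted p = 0.694) and Col3a1 (-0.28, adjusted p = 0.643) also had no call. Without the block the calls of Col5a3 (adjusted p = 0.102) and Col6a3 (adjusted p = 0.0721) were lost. The Col6a3 call was also lost with the gate per 10000 UMIs (-0.78, adjusted p = 0.0784) and with the gate over all kept cells (-0.68, adjusted p = 0.0724). In cells thinned to 5000 UMIs, Col5a3 (-1.31) and Col6a3 (-0.83) were called, Col12a1 was called as higher (0.57), and Col11a1 was not tested. Among 16 other collagens, none was higher and 11 were lower in Pi16-high cells (median log2 change -1.74, against -0.01 over all genes). Col15a1 had 3.77 and 2.98 CPM in Pi16-high cells and 247 and 187 CPM in Pi16-low cells (-6.01), and the basement membrane chains Col4a1 (-2.69) and Col4a2 (-2.23) were also lower.

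Folding and secretion genes had 3 higher and none lower of 28, among them Bmp1, the main procollagen C-proteinase (0.91). Fibril-binding genes had 3 higher and 5 lower of 16, with Fn1 (1.37) and Aspn (1.75) higher and Bgn, at 33.5 and 42.8 CPM in Pi16-high cells and 758 and 654 CPM in Pi16-low cells, lower (-4.22). Crosslinking genes had 1 lower of 5, Loxl3 (-0.81), breakdown genes 1 higher and 3 lower of 7, and transcription genes none higher and 5 lower of 23, with Runx2 (-4.29) and Ccn2 (-3.76) among them.

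**Figure D4:**
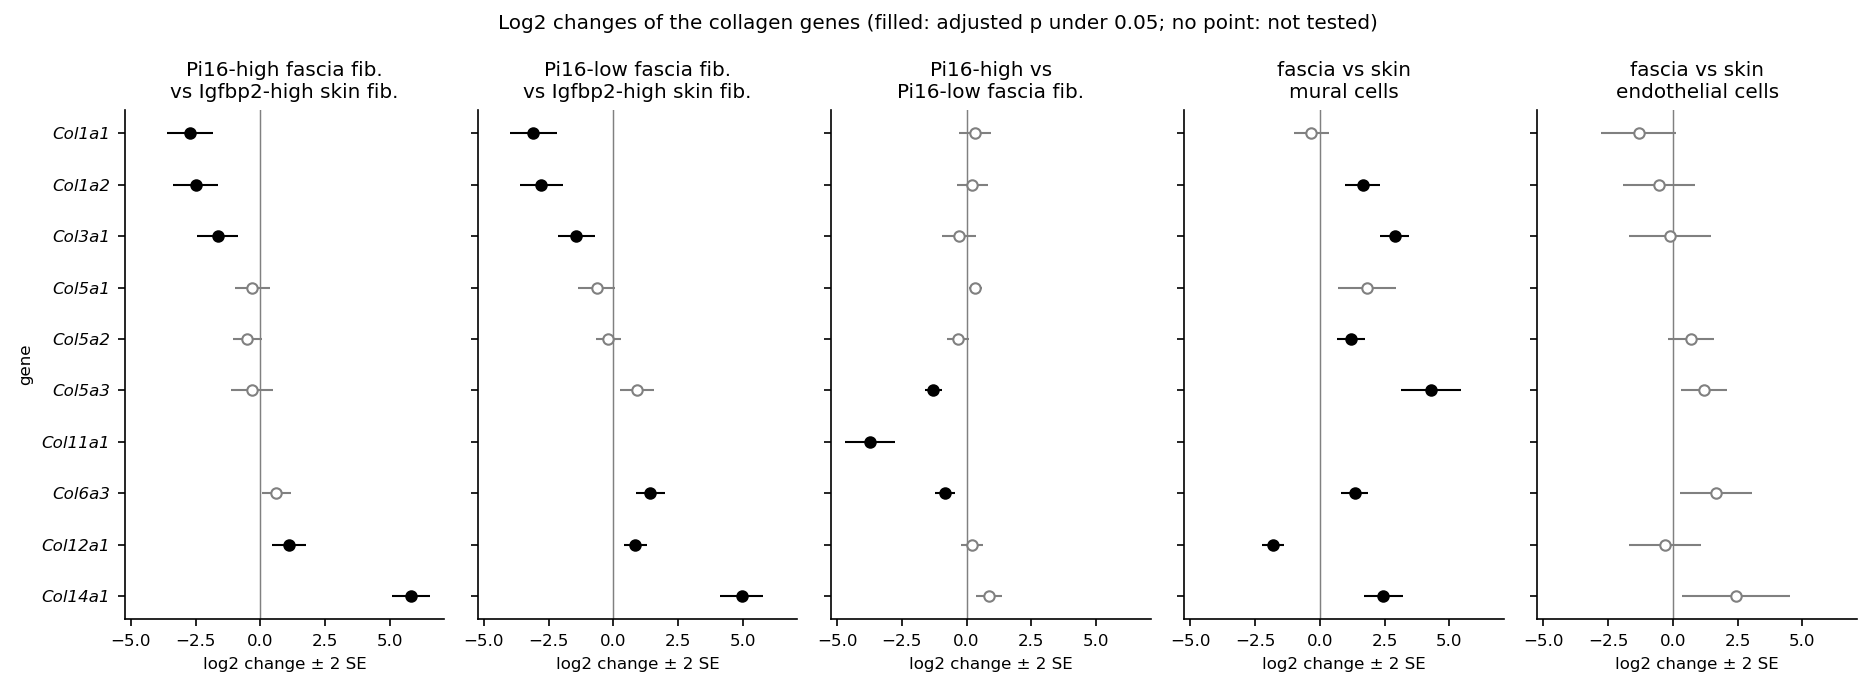
Log2 change of each collagen gene in 5 comparisons, fascia over skin or Pi16-high over Pi16-low; bars span 2 SE on either side, filled points have an adjusted p under 0.05 in edgeR's quasi-likelihood test, and a missing point was not tested. Col14a1 lies at 5.81 in Pi16-high against Igfbp2-high fibroblasts, and Col3a1 at 2.89 in mural cells.

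In mural cells most of the collagens were higher in fascia. Of 9 genes tested, 6 were higher and 1 was lower in fascia, with 18.1% of 12464 genes called, 7.81% higher and 10.3% lower. Col3a1 had 963 and 1021 CPM in fascia mural cells, against 77.2 and 119 CPM in skin mural cells, 7.44-fold higher (2.89 ± 0.28, adjusted p = 0.000346). Col1a2 had 488 and 390 CPM in fascia and 64.3 and 136 CPM in skin (1.65 ± 0.34, adjusted p = 0.0116). Col1a1 had 118 and 69.6 CPM in fascia and 64.3 and 104 CPM in skin and was not called (-0.32, adjusted p = 0.543).

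Col5a3 had 90.3 and 111 CPM in fascia mural cells and 12.9 and 0.823 CPM (5 and 1 UMIs) in skin mural cells (4.30 ± 0.59, adjusted p = 0.00164). It passed the low-count filter only through the fascia sums, so its call is no separate support for a difference. Col5a2, at 237 and 248 CPM in fascia and 103 and 64.2 CPM in skin, was higher (1.21, adjusted p = 0.0151), a call lost without either fascia library (1.18 and 1.13). Col6a3 (1.35, adjusted p = 0.00825) and Col14a1 (2.46, adjusted p = 0.00301) were higher too, the second resting on 5 and 6 UMIs in skin. Without skin replicate 2 the log2 change was 2.62 for Col5a3, 1.63 for Col14a1 and 2.42 for Col1a2, and without skin replicate 1 it was 6.54 for Col5a3. Col12a1 was the one lower gene, with 24.4 and 26.8 CPM in fascia and 77.2 and 63.4 CPM in skin (-1.81 ± 0.20, adjusted p = 0.000666). Col5a1 was not called (1.82, adjusted p = 0.058).

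Thinned to equal depth, a Col3a1 UMI was in 63.2% and 58.5% of fascia mural cells and 13.6% and 14.2% of skin mural cells, and in 84.3% and 73.3% and 25.8% and 26.5% without thinning. Leukocytes, as a background, had a thinned share of 10.4% and 5.26% in fascia and 7.26% and 8.09% in skin. A Col1a1 UMI was in 18.6% and 10.8% of thinned fascia mural cells and 11.9% and 14.7% of skin ones, against 7.68% and 3.06% of fascia and 12.8% and 9.25% of skin leukocytes. Skin mural Col1a1 was thus at or near the background. Fibroblast markers, 15 in all, summed to 7307 and 6555 CPM in fascia mural cells, with 6 to 8 of them above 10 CPM, and to 489 and 520 CPM in skin mural cells, with 4 above 10 CPM, and their part in the result was not tested.

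Much of the mural difference went with a cluster of 850 and 1195 fascia cells that held 2 and 3 skin cells. It was led by Pmfbp1 and Col28a1 and held 67.6% and 61.4% of fascia mural cells, whereas 96.8% and 98.8% of skin mural cells lay in a cluster led by Myh11, the smooth muscle myosin gene. In fascia this first cluster had 1294 and 1468 CPM of Col3a1, 112 and 144 CPM of Col5a3 and 9.58 and 10.2 CPM of Col12a1. In the Myh11-led cluster alone, Col3a1 had 192 and 100.1 CPM in fascia and 52.4 and 119 CPM in skin (0.17, adjusted p = 0.819). There, Col5a3 (3.54, adjusted p = 0.00881) and Col6a3 (1.24, adjusted p = 0.0339) were still higher in fascia. Col5a3 again passed the low-count filter only through the fascia sums. Col1a2 (0.32), Col5a2 (0.02), Col12a1 (-0.69, adjusted p = 0.0823) and Col14a1 (1.81, adjusted p = 0.0561) were not called. At a coarser clustering the Col3a1 change was 1.55 (adjusted p = 0.0523), and with an unnamed cluster of mural and keratinocyte RNA counted as mural it was 1.68 (adjusted p = 0.114).

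Other collagens in mural cells had 4 higher and 4 lower of 24 tested, with the type VI chains Col6a1, at 405 and 394 CPM in fascia and 82.4 and 45.3 CPM in skin (2.35), and Col6a2 (1.82) higher. Folding and secretion genes had 5 higher and 4 lower of 31, with Pcolce at 422 and 404 CPM in fascia and 69.5 and 49.4 CPM in skin (2.46). Fibril-binding genes had 5 higher and 2 lower of 14, with Sparc at 5770 and 5703 CPM in fascia and 816 and 713 CPM in skin (2.52) and Fn1 higher (4.14). Crosslinking genes had 1 higher of 4, Loxl2 (2.70), breakdown genes 2 higher and 1 lower of 7, and transcription genes none higher and 2 lower of 23, Klf4 (-3.12) and Runx1 (-2.03).

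Blood endothelial cells gave no collagen call, in a comparison of unlike clusters. In skin, 82.55% and 95.1% of them lay in a cluster led by Csf3, Selp and Sele that held no fascia cell. The fascia cells lay in other clusters. Over all libraries, Col3a1 had 168.6 CPM in the one led by Esm1 and 20.8 CPM in the one with Vwf among its leading genes. The part of cluster make-up in the result was not tested. Of 8 genes tested, edgeR's quasi-likelihood test called 0 and DESeq2 called 0, while edgeR called 21.9% of all 12056 genes, 8.58% higher and 13.3% lower. Only Col5a3 had an unadjusted p under 0.05 in edgeR (0.0325, adjusted p = 0.0955), with 8.07 and 9.23 CPM in fascia and 2.66 and 2.75 CPM in skin. Col1a1 had 71.0 and 45.9 CPM in fascia and 23.4 and 200.1 CPM in skin, so the skin libraries lay on both sides of fascia. Col3a1 had 143 and 80.2 CPM in fascia and 14.9 and 168 CPM in skin. The summed keratinocyte markers were 20.3 and 15.3 CPM in fascia endothelial cells and 1256 and 7291 CPM in skin ones, higher in the skin library with more collagen, and their part was not tested. Other collagens had 1 higher and 3 lower of 14, folding and secretion genes 5 and 3 of 29, fibril-binding genes none and 3 of 13, crosslinking genes none and 1 of 2, breakdown genes none and 2 of 6 and transcription genes 1 and 1 of 21.

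The make-up of the collagen RNA is given as shares, without a test. Since each UMI counts a molecule at its 3′ end, genes are set side by side without division by length, although capture can differ between genes. Col1a1 was 30.4% and 34.0% of the UMIs of the 10 genes in Pi16-high cells, 24.3% and 29.5% in Pi16-low cells and 44.6% and 45.3% in Igfbp2-high cells. Col3a1 was 28.9% and 28.5%, 39.1% and 34.3%, and 18.7% and 18.7% in the same subsets. In fascia mural cells Col3a1 was 42.8% and 46.7% and Col1a1 5.23% and 3.18%, and in skin mural cells they were 16.3% and 20.3% and 13.6% and 17.8%. Col14a1 made up 6.08% and 3.03% of collagen UMIs in Pi16-high cells and 0.02% and 0.01% in Igfbp2-high cells.

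**Figure D5:**
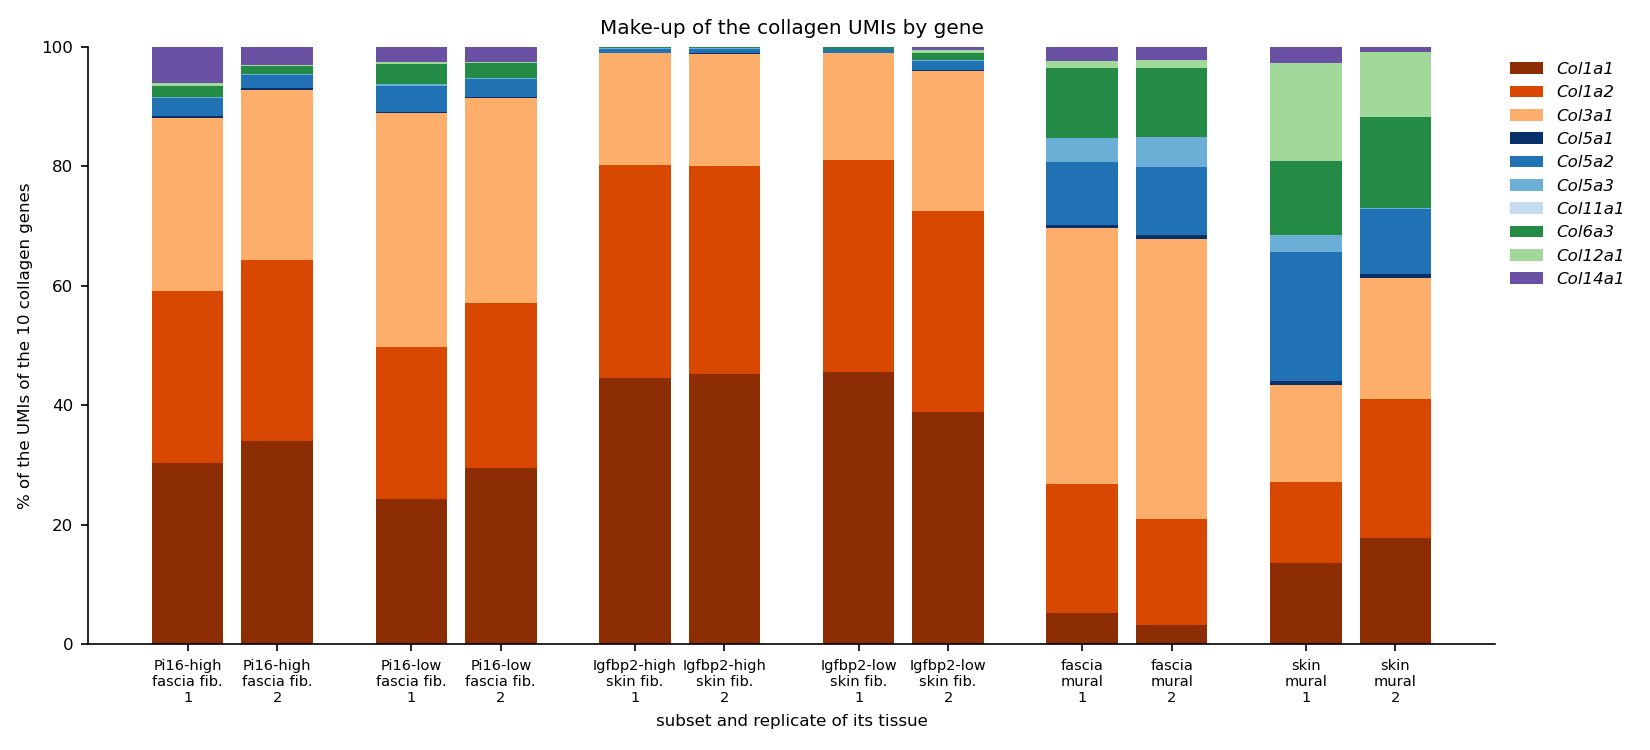
Stacked bars of the share of each gene in the collagen UMIs, in percent, for 6 subsets and each replicate. Col1a1 is the largest part in Igfbp2-high skin fibroblasts (44.6% and 45.3%), and Col3a1 in fascia mural cells (42.8% and 46.7%).

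Chain ratios, taken within a library, need no scaling by library size, but deeper cells weigh more in the sums, and some ratios moved after thinning. Col1a1 to Col1a2 was 1.06 and 1.12 in Pi16-high cells (1.09 ± 0.0454, SD, n = 2), 0.953 and 1.07 in Pi16-low cells (1.01 ± 0.0805) and 1.25 and 1.30 in Igfbp2-high cells (1.27 ± 0.0320). A type I molecule has more alpha 1 than alpha 2 chains, and the RNA ratios ran from 0.953 to 1.30 in these fibroblasts. In fascia mural cells the ratio was 0.241 and 0.178, so Col1a2 RNA exceeded Col1a1 RNA, and in skin mural cells it was 1.00 and 0.764. Within the Myh11-led cluster it was 0.537 and 0.631 in fascia and 0.960 and 0.792 in skin, and in the other mural cluster of fascia 0.192 and 0.120.

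Col3a1 to Col1a1 was 0.949 and 0.838 in Pi16-high cells (0.893 ± 0.0786), 1.61 and 1.16 in Pi16-low cells (1.39 ± 0.316) and 0.420 and 0.414 in Igfbp2-high cells (0.417 ± 0.00438). The 2 tissues did not overlap, with the higher type III proportion in fascia, but in skin replicate 2 the Sfrp2-led cluster had 1.39, inside the range of that cluster in fascia (1.57 and 1.22). In mural cells it was 8.18 and 14.7 in fascia and 1.20 and 1.14 in skin. In leukocytes it was 1.55 and 1.58 in fascia and 0.494 and 1.23 in skin. The fascia mural ratios lay above these values, and the part of free RNA in them was not tested. Col12a1 to Col14a1 was 0.0849 and 0.0496 in Pi16-high cells and 1.58 and 2.33 in Igfbp2-high cells. Col5a1 to Col5a2 was close in both, at 0.107 and 0.124 in Pi16-high cells and 0.115 and 0.0815 in Igfbp2-high cells.

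From cell to cell, the type I and III chains moved together more closely than Col1a1 moved with Col5a2, Col6a3 or Col14a1. In cells thinned to 2000 UMIs, the Spearman correlation of Col1a1 with Col1a2 was 0.706 (2101 cells) and 0.850 (435 cells) in Pi16-high fibroblasts and 0.945 (195 cells) and 0.956 (111 cells) in Igfbp2-high fibroblasts. The Spearman correlation of Col1a1 with Col3a1 was 0.688 and 0.834 in Pi16-high cells and 0.897 and 0.925 in Igfbp2-high cells. That of Col1a1 with Col14a1 was 0.209 and 0.0887 in Pi16-high cells, 0.220 and 0.435 in Pi16-low cells and 0.0935 and 0.0550 in Igfbp2-high cells. With Col5a2 it was 0.156 and 0.150 and with Col6a3 0.141 and 0.274 in Pi16-high cells. Cells of a library share its chemistry and depth, so these are descriptions.

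Across the 16 sums of subset and library, the genes whose log2 level followed Col1a1 most closely, apart from the 10, were Adamts2 (Pearson's r = 0.982), Loxl4 (0.980), Mmp27 (0.980), Fam114a1 (0.979), Mfap2 (0.975), Bmp1 (0.975), Twist2 (0.975) and Kdelr3 (0.974). Of the 10, Col1a2 had 0.984, Col3a1 0.950, Col14a1 0.607 and Col12a1 0.435. Those closest to Col14a1 were Ehbp1 (0.953), Chd9 (0.951), Ndn (0.949), Rab30 (0.944), Zcchc24 (0.943), Stxbp6 (0.942), Fn1 (0.939) and Tex22 (0.938). The points share libraries and cell classes, and the correlations are given without a test.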

How the data were processed

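The deposited files hold UMI counts per gene and cell barcode for 4 libraries, 2 of fascia and 2 of skin; the authors aligned reads with STAR in Cell Ranger 6.0.1 per the submitters' processing notes, although Cell Ranger 7.0.0 stands in the matrix header. A rat build, mRatBN7.2, and a human one are listed in those notes, and whether intronic reads were counted is not given in the sources used here. Of the 30560 genes, 7162 carry only an identifier.

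Kept cells had 500 genes or more and no more than 20% mitochondrial UMIs. Scrublet in Scanpy 1.11.5 marked doublets, and 210 and 196 cells were removed in fascia. In both skin libraries it marked under 0.5%, and the top-scoring 445 and 2163 cells, a share that grows with the number of cells, were removed instead. Cells were scaled to 10000 UMIs and logged, and 2000 variable genes without the 10 collagens, 30 components and 15 neighbours gave 40 Leiden clusters at resolution 1.0 (leidenalg 0.10.2). Clusters were named from 157 markers, of which 148 matched. A cluster with mural and keratinocyte scores within the limit for a mixed cluster, which was chosen after the data were seen, was left unnamed. The gates of 10 UMIs count UMIs of the cell and were applied within fibroblast clusters.

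Counts were summed per library and subset and tested two-sided with edgeR 4.0.16 in R 4.3.3 (TMM, filterByExpr, quasi-likelihood test), adjusted by Benjamini-Hochberg over all genes tested, threshold 0.05. The Pi16-high against Pi16-low test had the library as a block. SEs of log2 changes follow from the test statistic. Intervals of shares are exact (Clopper-Pearson, 95%). Shares of cells with a UMI were also taken after thinning cells to 2000 UMIs each, leaving out shallower ones. The 10 genes were named in every comparison. Of the lists (other collagens; folding, secretion and processing; fibril binding and assembly; crosslinking; breakdown; transcription), up to 4 called genes a direction with at least 20 CPM in the higher group were named by largest change, and not all of these are printed. The 8 genes most like Col1a1 and Col14a1 used log2(CPM + 1). The collagens, gates and lists were chosen with earlier results of these data known.

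On counts simulated with known changes, the edgeR test recovered 84.2% of 4-fold and 10.2% of 2-fold changes for Pi16-high against Igfbp2-high cells, 82.7% and 19.8% for Pi16-low against Igfbp2-high, 94.9% and 70.1% for Pi16-high against Pi16-low, 72.7% and 17.2% in mural and 66.7% and 6.10% in endothelial cells. Alternatives were DESeq2 1.42.0, relative log expression factors, no low-count filter, each library left out, a replicate block, library sizes without the 10 genes, other gates, Leiden resolution 0.5 and other denominators for the share. Added after the data were seen were the mixed cluster counted as mural, the Myh11-led cluster alone, fascia fibroblasts thinned to 5000 UMIs, and crossed replicate numbers in endothelial cells.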

Additional observations from a re-analysis of the deposited data

Results flagged for a closer look

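In 8 of the 9 collagen genes tested, the fascia-to-skin difference was not the same in fibroblasts as in mural cells. A model over both kinds of cell, with the library as a block, tested the log2 change in fibroblasts (Pi16-high against Igfbp2-high) minus that in mural cells, and called 1717 of 12921 genes. The difference of changes was -4.66 for Col3a1 (adjusted p = 0.000245), -4.34 for Col1a2 (adjusted p = 0.00146), -4.37 for Col5a3 (adjusted p = 0.00162) and -2.52 for Col1a1 (adjusted p = 0.0284), all by edgeR's quasi-likelihood test. It was -1.94 for Col5a1 (adjusted p = 0.0462) and -1.75 for Col5a2 (adjusted p = 0.00826). The fibril-surface collagens went the other way, with 3.68 for Col14a1 (adjusted p = 0.00176) and 2.90 for Col12a1 (adjusted p = 0.00138), and Col6a3 was not called (-0.76, adjusted p = 0.323).

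With mural cells of the Myh11-led cluster alone, edgeR called 1270 of 12213 genes. Among the collagens it called 5: Col1a2 (-2.91), Col14a1 (4.40), Col5a3 (-3.55), Col12a1 (1.84) and Col1a1 (-2.58). There the values of Col3a1 (-1.89, adjusted p = 0.122), Col5a2 (-0.47) and Col5a1 (0.23) were not called. This test was added after the data were seen, and it rests on 60 and 242 skin mural cells.

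A cluster of 2336 cells, of which 2314 came from skin replicate 2, was left unnamed and entered no comparison of named clusters. It was led by Sfrp5, Apod and Thbs4, and the 10 collagen genes summed to 26438 CPM in it, with Col1a1 at 11419 CPM, Col1a2 at 9224 CPM and Col3a1 at 5054 CPM. Its Col11a1 level was 48.6 CPM. Both values lie above those of leukocytes of the same library, and whether free RNA gives them was not tested.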

How the results depend on the processing

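Of the tests of single collagen genes under the alternatives, 441 kept direction and call, 41 lost the call, 20 gained one and 21 turned direction; causes were not tested. With each library left out, the genes called numbered 1653 to 3079 for Pi16-high against Igfbp2-high cells (3 to 5 of the collagens), 1152 to 2483 for Pi16-low against Igfbp2-high (5 to 8 collagens), 1021 to 3000 in mural cells (6 to 7 collagens) and 1009 to 2492 in endothelial cells (0 to 2 collagens). Pi16-high against Pi16-low cells had no residual degrees of freedom without a library and was not tested so. Without 1 library, the log2 changes that turned, which were of uncalled genes, ranged from -0.71 to 0.25 for Col5a1 and -0.87 to 0.34 for Col5a3 in Pi16-high cells, -0.41 to 0.0099 for Col5a2 in Pi16-low cells and -0.73 to 0.19 for Col1a1 in mural cells. In endothelial cells they ranged from -0.92 to 2.25 for Col3a1, -1.30 to 0.74 for Col12a1, -2.10 to 0.66 for Col1a1 and -1.30 to 1.30 for Col1a2. Gates over all kept cells gave 1826 genes and 1 collagen (Pi16-high; Col5a1 0.12, Col5a2 0.0091, Col5a3 0.20) and 1130 genes and 1 collagen (Pi16-low; Col5a2 0.15). No gate gave 1223 genes, 0 collagens and a change of -0.17 for Col12a1, which was called with the gates (1.12). In Pi16-high against Pi16-low cells, no filter called 2850 genes, a gate per 10000 UMIs 1145, and no replicate block 1235 with 1 collagen. In mural cells, Leiden resolution 0.5 called 3 collagens, and the Myh11-led cluster alone 1258 genes and 2 collagens. In endothelial cells, no filter called 4434 genes and 4 collagens (Col3a1 0.0038). With the replicate block, 5, 6 and 7 collagens were called in Pi16-high, Pi16-low and mural cells, where same-numbered libraries did not deviate together (correlations -0.031, -0.066 and -0.069), and the endothelial Col3a1 change was 0.37. Crossed pairing in endothelial cells (correlation -0.175), added after the data were seen, called 2 collagens among 3543 genes (Col3a1 0.40). DESeq2 put 39.0% of the calls between Pi16-high and Igfbp2-high cells on the higher side, edgeR 46.4%; in endothelial cells the shares were 28.4% and 39.2%. The collagen share was 8.88% over all kept cells (13.3% and 4.45%) and 7.57% as a median over cells in Igfbp2-high cells. In fascia mural cells it was 0.0919% in the Myh11-led cluster, 0.258% without mitochondrial and ribosomal protein genes and 0.187% as a median. In skin mural cells it was 0.110% with the mixed cluster, 0.0626% without those genes and 0.0378% as a median, and in fascia endothelial cells 0.00948% as a median. Thinned, Col1a1 to Col1a2 was 1.35 in Igfbp2-high, 1.07 in skin mural and 0.819 in fascia endothelial cells, and 0.584 in fascia mural cells of the Myh11-led cluster. Few UMIs limit Col11a1 in all fibroblast subsets, Col14a1 in Igfbp2-high cells and Col5a3 in skin mural cells.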

Other observations

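Col11a1, which was near the limit of detection in the fibroblast subsets compared above, had its highest level in skin cells with dermal papilla markers, the mesenchyme at the base of the hair follicle. These dermal papilla-like cells held 129.7 and 148 CPM of Col11a1 in skin replicates 1 and 2, and 0.732% and 0.836% of their UMIs came from the 10 collagen genes. Over all libraries, the dermal papilla-like cluster had 136 CPM from 571 UMIs in 793 cells. The unnamed cluster led by Sfrp5, Apod and Thbs4 came next, with 48.6 CPM from 242 UMIs. A melanocyte cluster, all from skin replicate 2, had 35.2 CPM, which rests on 12 UMIs in 117 cells. An unnamed cluster led by Cd207 had 18.5 CPM (47 UMIs) and the Sfrp2-led fibroblast cluster 6.04 CPM (81 UMIs). Within the Sfrp2-led cluster Col11a1 had 5.66 and 2.44 CPM in fascia and 14.2 CPM in skin replicate 2. These are descriptions of clusters, without a test.

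Col14a1 was not absent from skin. Dermal papilla-like cells had 270.4 and 199 CPM of it in skin replicates 1 and 2, and Igfbp2-low skin fibroblasts had 69.9 and 327 CPM, against 22.9 and 12.8 CPM in Igfbp2-high skin fibroblasts.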
